A study of Oryza sativa with 6 samples.

Results

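The response of roots of the rice line 6-4 to phosphorus (P) deficiency was read from 6 single array channels, out of 12 channels in the series. 6-4 is a near-isogenic line that carries inserts from the indica cultivar Kasalath. The labels do not give the size or position of the inserts. Its RNA was the Cy3 channel on Control replicates 1 and 3 and P-def replicate 2, and the Cy5 channel on Control replicate 2 and P-def replicates 1 and 3. The other channel of every array held the cultivar Nipponbare from the same condition. Control plants (3 root samples of 6-4) grew in soil of high P content, and P-def plants (3 root samples of 6-4) in the same kind of soil without P. Both groups shared the line, the 12 L pots, the soil type, a volcanic Andosol, and the 1.6 g of root tissue per extract, and the series describes the replicates as biological. Plant age and the length of the treatment are not given in the sources used here. RNA came from whole roots, so fewer cells of a type and less RNA per cell cannot be told apart in any value below.

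Plants short of P turn on a set of genes that raise the supply of phosphate and lower its use. High affinity transporters of the root surface take up phosphate, purple acid phosphatases and ribonucleases free it from organic compounds, and galactolipids take the place of phospholipids in membranes so that their phosphate can be used again. Metabolism also shifts to steps that use pyrophosphate or bypass phosphate, and Andosols are known for binding phosphate tightly.

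The arrays carried 21495 rice probes, each named by a cDNA accession, and 19912 were tested after dim probes and probes with flagged spots were left out. A value is the log2 intensity of the 6-4 channel after background correction and normalization, and a change is P-def minus Control on that scale with the dye effect removed by the fit, so it can differ from the difference of the printed values. Gene names are those of the array design and often come from the nearest match in another species. Spots well above background in the 6-4 channel made up 92.9% to 98.5% of rice probes. Across all probes tested, the 6-4 channel of P-def replicate 2 stood apart: its correlation with the other 5 was 0.933 to 0.959, against 0.956 to 0.985 among those 5. Negative control spots in the 6-4 channel were 4.8 times their local background on that array and 1.06 to 2.86 times on the others. On Control replicate 2 they were bright in Cy3 too, at 5.06 times background, where Cy3 held Nipponbare. An effect of the dye limited to the 2 arrays of replicate 2 would be fitted without any residual as a difference between the responses of the lines, and would move the 6-4 response by 0.5 for each unit of that effect. It cannot be told apart from such a difference with these arrays. It would leave the mean response of both lines unmoved.

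The roots carried RNA of root-specific genes. The probe AK109149 for RCc3, a protein specific to roots, had values of 14.53, 14.78 and 14.96 in Control and 14.85, 14.73 and 14.84 in P-def, where 1 spot was saturated. All 10 root marker probes tested were well above background on all 6 arrays, and their summed intensity was 63470 to 74300 in Control and 46880 to 49790 in P-def. The groups did not overlap in this sum, which gives bright probes the most weight. Across the 10 probes the median change was -0.10, with 4 changes above 0 and 6 below. 1 of the 10 passed the test, where 1.39% of all probes were called. It was a bright probe for RCc2 (AK062911), described with the lowered probes, that fell by 1.91 and weighs heavily in the gap between the sums. The sum therefore does not speak for the 10 probes as a set. With replicates as blocks in the fit, 2 of the 10 fell and 0 rose, where 7.31% of all probes fell and 7.49% rose. Green tissue markers were not at background: 35 probes for photosystem, light-harvesting, plastocyanin, Rubisco small subunit and other photosynthesis genes summed to 27810 to 43810 in Control and 37170 to 42650 in P-def. A Rubisco small subunit probe (AK070556) was at 14.06, 14.11 and 13.37 in Control and 13.72, 13.90 and 14.18 in P-def. The groups overlapped in this sum, and 1 of the 35 passed the test, PSII-S of photosystem II (AK058284), which rose by 0.70 (SE 0.15, limma adjusted p = 0.0482). A fit with replicates as blocks called 3 of the 35 up and 2 down, and limma called 0 of them whichever array was left out. The part of green tissue in the responses below was not tested.

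Without P, 6-4 roots held more RNA of some genes of phosphate uptake (3 of 9 probes) and phosphate release (11 of 35) and of the galactolipid enzyme MGDG synthase, and more probes rose than fell. In limma's test over all 12 channels, 217 probes rose and 60 fell at an adjusted p under 0.05, which is 1.39% of the 19912 tested (1.09% up, 0.301% down), and 3227 had an unadjusted p under 0.05. Changes of at least 2-fold numbered 159 up and 34 down. The 3 P-def values lay entirely above or below the 3 Control values at 274 of the 277 called probes, against 16.7% of all probes (8.52% above and 8.18% below), which follows from the calls having been made on these values. Within the Cy3 arrays and within the Cy5 arrays, every one of the 277 differed between conditions in the direction of its call. Where the groups do not overlap this holds by arithmetic, so it is no separate support. The mean change of both lines had the same sign at all 277. It reached 1 on the log2 scale at 121 of the risers and -1 at 23 of the fallers. That mean contains the 6-4 change by which the probes were called, so its sign and size are no separate support. A fit that pairs samples by replicate number (the replicate block) called 2946 probes (14.8%; 1491 up and 1455 down), the 277 among them. Without 1 array the count was 71 (Control replicate 1), 76 (Control replicate 2), 214 (Control replicate 3), 102 (P-def replicate 1), 117 (P-def replicate 2) or 127 (P-def replicate 3), and 113 of the 117 without P-def replicate 2 were among the 277. Per the file headers, Agilent Feature Extraction was version 7.1 for the arrays of replicates 1 and 2 and 8.1 for replicate 3. The 4 arrays of version 7.1 alone gave 2 calls, both up (1341 at an unadjusted p under 0.05), a fit with the version as a block gave 1036 (640 up and 396 down), and version 8.1 holds 1 array per condition, too few for a value. Without normalization between arrays 25 probes passed, 96% of them up against 78.3% of the 277. Of the 84 called probes named here or followed with them, 22 passed without each array in turn and all kept their direction.

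**Figure D1:**
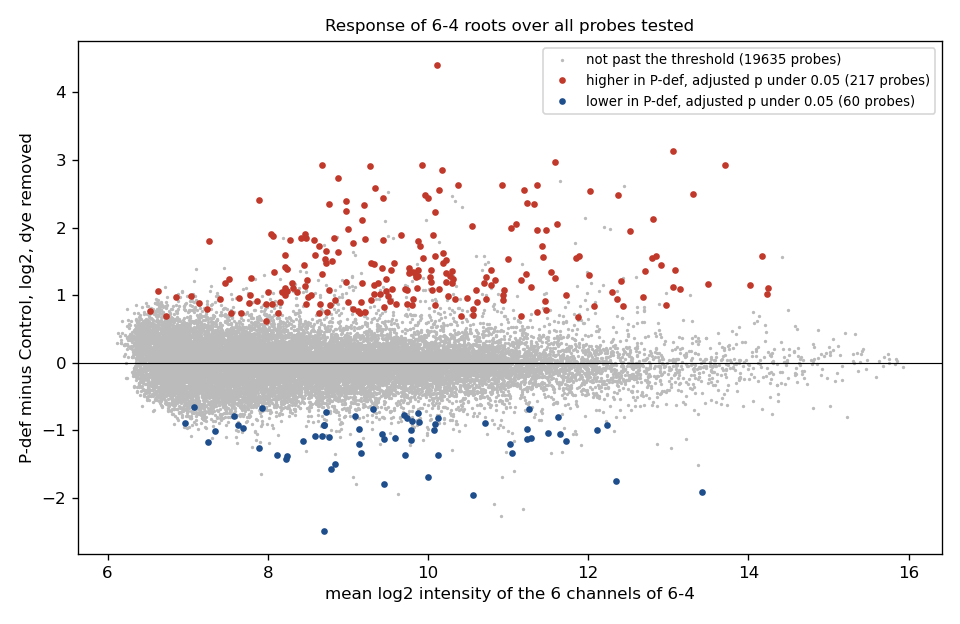
Change of each of the 19912 probes in 6-4 roots (P-def minus Control, log2, dye removed) against the mean log2 intensity of the 6 channels of 6-4. Red points are the 217 probes that rose and blue points the 60 that fell at an adjusted p under 0.05, and grey points did not pass.

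Transporters carry phosphate into root cells. Of 9 measured phosphate transport probes 3 rose and none fell, with a median change of 1.27 against -0.01 over all probes. With the replicate block 5 rose and 1 fell. Over all probes 1.09% rose and 0.301% fell, and 7.49% and 7.31% with the block. A probe for the high affinity transporter Pht1-2 (AK101170) was bright, at 13.79, 13.34 and 13.01 in Control and 14.94, 15.01 and 14.93 in P-def. It rose by 1.57 (SE 0.19, limma adjusted p = 0.00172). The 3 P-def samples were all above Control, and 1 of their 3 spots was saturated, so neither the size of the rise nor the spread in P-def is exact. A second probe with that name (AK101380) read 12.54, 11.98 and 11.59 in Control and 13.49, 13.62 and 13.86 in P-def, and rose by 1.57 (SE 0.32, limma adjusted p = 0.0326). The phosphate transporter probe AK109109, named after a Catharanthus gene, went from 8.26, 8.07 and 7.37 to 9.96, 10.06 and 9.23 and rose by 1.84 (SE 0.27, limma adjusted p = 0.00459). In both groups its replicate 3 was the lowest. Of the 9, 1 to 3 passed when 1 array was left out, fewest without P-def replicate 1 or P-def replicate 2.

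Another pair of transporter probes had values apart between the groups without passing the test. High affinity phosphate transporter 11 (AK062362, singled out after its values were seen) read 11.04, 10.63 and 11.79 in Control and 12.91, 13.35 and 14.95 in P-def, a change of 2.62 (SE 0.61, limma adjusted p = 0.0638). Its P-def replicate 3 lay far above the other P-def samples, 1 P-def spot was saturated, and the adjusted p was 0.000706 with the replicate block. OsPT1 (AK063990) read 12.38, 12.12 and 11.29 and 13.62, 12.83 and 13.39, a change of 1.27 (SE 0.29, limma adjusted p = 0.0583), with an adjusted p of 0.00438 with the block. The other 4 probes overlapped between the groups, with changes from -0.39 to 0.22. One of them, AK069054, also carries the name Pht1-2, so probes of that name disagreed. Of the sensing and signalling genes 2 probes were measured and limma called neither, with 1 at an unadjusted p under 0.05 and 1 called with the block. A probe for an ids4-like protein with an SPX domain (AK107245), of the family that reports phosphate status in Arabidopsis, read 10.84, 10.33 and 10.16 in Control and 11.14, 11.18 and 11.30 in P-def. Its change was 0.80 (SE 0.24, limma adjusted p = 0.139), and the adjusted p was 0.0239 with the block. PHO1 (AK100323), known in Arabidopsis for loading phosphate into the xylem, had a change of 0.21 (SE 0.15, limma adjusted p = 0.533), with overlapping groups and an adjusted p of 0.291 with the block.

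Enzymes that free phosphate from organic compounds formed the list with the most risers. Of 35 measured acid phosphatase, metallophosphatase and ribonuclease probes 11 rose and none fell, where 1.09% of all probes rose. With the replicate block 15 rose and 4 fell, against 7.49% and 7.31% of all probes. When 1 array was left out 7 to 9 passed, fewest without Control replicate 1. The list's median was 0.26. A purple acid phosphatase probe (AK110804) read 8.24, 7.31 and 7.91 in Control and 10.16, 10.26 and 10.01 in P-def. It rose 5.25-fold, by 2.39 (SE 0.21, limma adjusted p = 0.00014), with the 3 P-def samples close together. A purple acid phosphatase named after sweet potato (AK071643) was brighter, at 11.84, 11.81 and 11.53 in Control and 14.09, 13.81 and 13.76 in P-def, and rose by 2.12 (SE 0.18, limma adjusted p = 0.00014). The metallophosphatase ppd4 (AK106533) went from 11.79, 11.45 and 11.40 to 13.51, 13.46 and 13.51, a rise of 1.95 (SE 0.16, limma adjusted p = 0.000118). Among these probes the spread between P-def samples was small beside the gap to Control. Diphosphonucleotide phosphatase 1 (AK101976), which belongs to the same protein family, read 12.00, 11.86 and 12.28 in Control and 13.37, 13.39 and 13.36 in P-def and rose by 1.36 (SE 0.16, limma adjusted p = 0.000973).

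Nucleic acids are a further store of phosphate, and nucleases were among the risers. Singled out after their values were seen, nuclease I (AK059608) read 7.87, 7.89 and 7.73 in Control and 10.003, 9.51 and 9.37 in P-def, and a ribonuclease (AK058502) read 10.28, 10.22 and 10.26 and 11.32, 11.34 and 11.32. They rose by 1.65 (SE 0.25, limma adjusted p = 0.0066) and by 1.15 (SE 0.15, limma adjusted p = 0.0018). The ribonuclease had all 3 samples of each group within a narrow span. The purple acid phosphatase PAP22 (AK073222, singled out likewise) rose by 1.57 (SE 0.20, limma adjusted p = 0.0018), from 10.90, 10.65 and 10.32 to 12.44, 12.29 and 12.01. The other 4 risers changed by 0.74 to 1.63.

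The largest rise among probes whose description names a protein of known function was in galactolipid synthesis. Monogalactosyldiacylglycerol (MGDG) synthase, which makes the galactolipid that other galactolipids are built from (AK064148), read 7.25, 7.32 and 7.03 in Control and 10.50, 10.15 and 9.81 in P-def. It rose 7.61-fold, by 2.93 (SE 0.23, limma adjusted p = 0.000103). No P-def sample came near Control. A glycerophosphodiester phosphodiesterase (AK071836), of a class that breaks down deacylated phospholipids, read 9.22, 8.95 and 9.22 in Control and 10.70, 10.64 and 10.13 in P-def and rose by 1.34 (SE 0.22, limma adjusted p = 0.0104). These were the 2 risers among 23 lipid remodelling probes, of which none fell, with a median change of 0.13. Under the block 6 rose and 2 fell. The shares over all probes were 1.09% up and 0.301% down, and 7.49% and 7.31% under the block. When 1 array was left out 1 to 2 passed, fewest without any array but P-def replicate 3. Digalactosyldiacylglycerol synthase DGD2 (AK067931) read 9.78, 9.65 and 9.76 and 10.89, 10.12 and 10.71, a change of 0.81 (SE 0.19, limma adjusted p = 0.0693), with an adjusted p of 0.00368 with the block. A phospholipase C (AK101291), an enzyme that splits the head group from phospholipids, had a change of 1.10 (SE 0.33, limma adjusted p = 0.15), with an adjusted p of 0.014 with the block. Of the 23 probes, 5 had all P-def values above Control and 0 had them all below, against 8.52% and 8.18% of all probes.

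**Figure D2:**
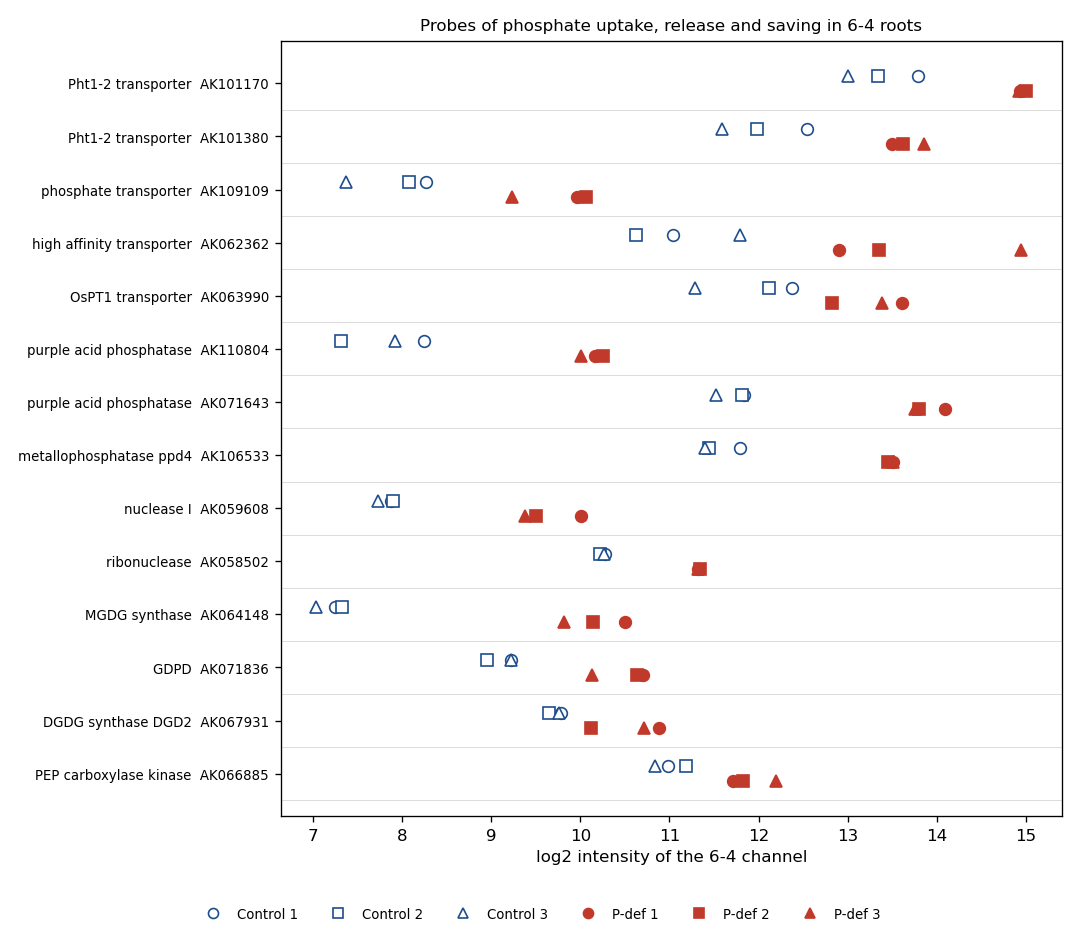
Log2 intensity of the 6-4 channel in each of the 3 Control samples (open symbols) and 3 P-def samples (filled symbols) for 14 probes of phosphate transport, phosphate release, lipids and PEP carboxylase kinase, with the symbol shape marking the replicate number. At all 14 the filled symbols lie to the right of the open ones, from a change of 0.81 at AK067931 to 2.93 at AK064148.

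Lactate dehydrogenase, a pyrophosphate-dependent phosphofructokinase, an alternative oxidase and PEP carboxylase kinase rose, and most probes of glycolysis and organic acid metabolism did not pass. Of 82 glycolysis and organic acid probes 5 rose and 1 fell, where 1.09% of all probes rose and 0.301% fell. The list's median change was 0.05. Under the block 15 rose and 5 fell, against 7.49% and 7.31% of all probes. When 1 array was left out 1 to 5 passed, fewest without Control replicate 1 or Control replicate 2. Lactate dehydrogenase (AK106504), which turns pyruvate into lactate, read 7.17, 7.37 and 7.57 in Control and 9.29, 9.10 and 9.14 in P-def and rose by 1.81 (SE 0.19, limma adjusted p = 0.000554). A phosphofructokinase that uses pyrophosphate in place of ATP (AK071798) went from 9.12, 8.63 and 9.42 to 10.36, 10.66 and 11.20 and rose by 1.73 (SE 0.27, limma adjusted p = 0.00728). Alternative oxidase AOX1b (AK107376), which passes electrons to oxygen without making ATP, rose by 1.48 (SE 0.20, limma adjusted p = 0.003), from 8.83, 8.32 and 8.56 to 10.18, 10.25 and 9.63. The groups did not overlap at any of these. Phosphoenolpyruvate carboxylase kinase (AK066885), the enzyme that activates PEP carboxylase, read 10.98, 11.19 and 10.84 in Control and 11.71, 11.82 and 12.20 in P-def, a rise of 0.91 (SE 0.17, limma adjusted p = 0.0225).

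Of 103 sucrose, starch and sugar transport probes 2 rose and 3 fell, where 1.09% of all probes rose and 0.301% fell, with a median of -0.05. The block called 10 up and 11 down, where it called 7.49% of all probes up and 7.31% down. When 1 array was left out 0 to 3 passed, fewest without Control replicate 1. Sucrose-phosphatase (AK071525), which releases phosphate in the last step of sucrose synthesis, rose from 7.40, 7.28 and 7.95 to 9.38, 9.66 and 9.11, by 1.91 (SE 0.22, limma adjusted p = 0.00112). Starch branching enzyme 3 (AK108535) rose by 1.11 (SE 0.16, limma adjusted p = 0.00402). Sucrose-phosphate synthase (AK071732), the enzyme of the step before, fell from 10.53, 10.58 and 10.49 to 9.76, 9.65 and 9.75, by 0.82 (SE 0.16, limma adjusted p = 0.0268). Cell wall invertase 2 (AK072276), which splits sucrose outside the cell, fell by 1.12 (SE 0.21, limma adjusted p = 0.0208), from 11.68, 11.88 and 11.88 in Control to 10.41, 10.53 and 11.31 in P-def.

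Alanine aminotransferase and a nitrate transporter rose, and 2 aminotransferases fell. Of 82 probes of nitrogen uptake, assimilation and amino acid turnover 6 rose and 2 fell, with a median of -0.02. The block called 15 up and 11 down. Among all probes 1.09% rose and 0.301% fell, and 7.49% and 7.31% with the block. When 1 array was left out 1 to 10 passed, fewest without Control replicate 1. Alanine aminotransferase (AK107237), which moves an amino group between alanine and glutamate, read 8.01, 7.48 and 7.95 in Control and 10.68, 10.68 and 10.87 in P-def and rose 7.52-fold, by 2.91 (SE 0.25, limma adjusted p = 0.00014). The high affinity nitrate transporter Nrt2 (AK072215) read 8.94, 8.40 and 8.78 and 10.58, 10.86 and 12.19, a rise of 2.48 (SE 0.39, limma adjusted p = 0.00667). Its P-def replicate 3 was the highest by more than the span of the other 2. An ammonium transporter of the AMT2 type (AK108711) rose by 1.34 (SE 0.17, limma adjusted p = 0.00199), from 7.30, 7.40 and 7.41 to 9.10, 8.54 and 8.71. Alanine:glyoxylate aminotransferase 2 (AK105642) fell by 1.27 (SE 0.19, limma adjusted p = 0.00511) and aspartate aminotransferase (AK101008) by 1.13 (SE 0.21, limma adjusted p = 0.02). A probe for an alanine:glyoxylate aminotransferase-like protein went the other way (AK060423) and rose by 1.08 (SE 0.21, limma adjusted p = 0.0256).

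Nitrate reduction had large changes that did not pass. Singled out after their values were seen, a pair of nitrate reductase probes read 12.44, 12.54 and 11.06 (AK102178) and 12.57, 12.59 and 11.41 (AK102363) in Control, and 10.12, 9.29 and 10.04 and 10.24, 9.46 and 10.80 in P-def. Nitrate reductase makes nitrite from nitrate. Their changes were -2.26 (SE 0.51, limma adjusted p = 0.0573) and -2.16 (SE 0.56, limma adjusted p = 0.0925). A nitrate transporter of the NRT1.1 type (AK068409, singled out likewise) read 12.14, 12.33 and 10.88 in Control and 9.77, 9.24 and 10.55 in P-def, a change of -2.09 (SE 0.53, limma adjusted p = 0.0873). All P-def samples were below all Control samples at the 3 probes, and Control replicate 3 was the lowest Control sample at each. With the replicate block the adjusted p was 0.0069, 0.00981 and 0.0101.

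Kaurene synthase A, ent-kaurene oxidase and 2 further P450 probes rose. Of 24 probes of diterpenoid and gibberellin synthesis 4 rose and 1 fell, where 1.09% of all probes rose and 0.301% fell. The list's median was 0.27. The block called 4 up and 3 down, against 7.49% and 7.31% of all probes. When 1 array was left out 1 to 4 passed, fewest without Control replicate 1 or Control replicate 2. A pair of these probes carry the names of kaurene synthase A (AK100333) and ent-kaurene oxidase (AK066285), enzymes known from gibberellin synthesis. Whether they act in that pathway in these roots was not tested. The 2 probes read 8.35, 7.84 and 7.86 and 8.78, 7.94 and 7.99 in Control, and 10.50, 10.50 and 10.18 and 9.87, 10.35 and 9.46 in P-def. They rose by 2.33 (SE 0.35, limma adjusted p = 0.00522) and 1.78 (SE 0.29, limma adjusted p = 0.00812). DWARF3 (AK069429), a cytochrome P450 of gibberellin synthesis in maize, rose by 1.81 (SE 0.28, limma adjusted p = 0.00667). A P450 named after a taxane 13-alpha-hydroxylase of yew (AK109627) was the brightest of the 4, at 11.68, 10.996 and 10.78 in Control and 13.24, 13.76 and 13.81 in P-def, and rose by 2.48 (SE 0.31, limma adjusted p = 0.0018). The faller was a dim P450 with a yew name as well (AK102289, -0.90, SE 0.14, limma adjusted p = 0.00627), at which P-def replicate 2 was the lowest of the 6 samples.

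The plastid route that supplies these compounds and carotenoids held further risers. This list was drawn up after values had been seen, so its count describes these samples only: of 21 probes 7 rose and none fell, and 9 and 1 with the replicate block. All probes tested gave 1.09% up and 0.301% down, and 7.49% and 7.31% with the block. Of the 21 probes, 1 to 6 passed when 1 array was left out, fewest without Control replicate 1. Deoxyxylulose phosphate synthase, the entry step (AK100909), read 10.97, 9.99 and 10.95 in Control and 12.48, 13.04 and 12.21 in P-def and rose by 2.05 (SE 0.33, limma adjusted p = 0.00751). Phytoene synthase, the first step of carotenoid synthesis (AK073290), went from 9.13, 8.66 and 9.10 to 11.14, 10.91 and 11.56 and rose by 2.22 (SE 0.31, limma adjusted p = 0.00353). Phytoene desaturase (AK058668) rose by 1.37 (SE 0.17, limma adjusted p = 0.0018). The other 4 risers, the carotenoid cleavage enzyme CCD1 (AK066766) among them, rose by 1.002 to 1.37 (AK105762). The 3 other probes named for phytoene synthase did not pass and disagreed with AK073290, with changes of 0.41 at AK070716, -0.10 at AK059535 and -0.71 at AK108154. Their adjusted p with the block was 0.0436, 0.739 and 0.004.

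Flavonoid synthesis had 5 risers and no faller among 111 flavonoid and phenylpropanoid probes, whose median was -0.04. The block called 12 up and 16 down. The shares over all probes were 1.09% up and 0.301% down, and 7.49% and 7.31% with the block. When 1 array was left out 1 to 5 passed, fewest without Control replicate 1. Flavanone-3-hydroxylase (AK071218), an enzyme on the way to flavonols and anthocyanins, read 8.32, 7.49 and 8.32 in Control and 10.48, 10.61 and 10.83 in P-def and rose by 2.59 (SE 0.24, limma adjusted p = 0.00022). Chalcone synthase (AK061132), which starts the pathway, rose by 1.73 (SE 0.35, limma adjusted p = 0.0326), from 7.29, 8.01 and 7.75 to 10.44, 9.14 and 9.19. Its P-def replicate 1 stood above the other 2. A flavonoid 3,5-hydroxylase (AK103567) rose by 1.96 (SE 0.27, limma adjusted p = 0.00263) and an anthocyanidin glucosyltransferase (AK064270) by 1.39 (SE 0.25, limma adjusted p = 0.0175).

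Transporters of the ABC family and cytochromes P450 gave some of the largest rises. Their counts are read against 1.09% of all probes up and 0.301% down, and 7.49% and 7.31% with the replicate block. Of 60 ABC transporter probes 3 rose and none fell (median 0.05; 10 and 6 with the replicate block), and 2 to 3 passed when 1 array was left out, fewest without any array but P-def replicate 3. A P-glycoprotein (AK107554) read 9.24, 8.65 and 8.71 in Control and 11.45, 11.34 and 11.47 in P-def and rose by 2.56 (SE 0.17, limma adjusted p = 7.42e-05). The ABC transporter probe AK067653 went from 11.02, 10.53 and 10.63 to 13.10, 13.25 and 13.64 and rose by 2.54 (SE 0.28, limma adjusted p = 0.000701). ABC proteins use ATP to move compounds across membranes, and what these carry is not given in the files. Of 95 cytochrome P450 probes 4 rose and none fell (median 0.17; 12 and 8 with the block), ent-kaurene oxidase among them, and 1 to 4 passed when 1 array was left out, fewest without Control replicate 2, P-def replicate 1 or P-def replicate 2. The largest was AK072715, from 10.38, 9.49 and 9.93 to 12.35, 12.58 and 12.44, by 2.55 (SE 0.21, limma adjusted p = 0.000118). A major intrinsic protein, a channel of the aquaporin family (AK105483), was the only call among 40 aquaporin and proton pump probes and rose by 1.903 (SE 0.24, limma adjusted p = 0.00183), with 3 up and 4 down under the block. The aquaporin PIP2 (AK061782) read 14.00, 13.93 and 13.91 in Control and 13.36, 13.39 and 13.36 in P-def, a change of -0.61 (SE 0.14, limma adjusted p = 0.0573), with an adjusted p of 0.00858 with the block.

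Of 77 WRKY, NAC and AP2 probes 3 rose and 1 fell (median 0.06), where 1.09% of all probes rose and 0.301% fell. The replicate block called 8 up and 4 down, against 7.49% and 7.31% of all probes. When 1 array was left out 1 to 3 passed, fewest without Control replicate 1, Control replicate 2 or P-def replicate 2. The AP2 factor RAP2.11 (AK109606), known in Arabidopsis roots for the response to low potassium, read 8.96, 8.41 and 9.07 in Control and 10.57, 11.08 and 11.91 in P-def and rose by 2.44 (SE 0.45, limma adjusted p = 0.019). A pair of probes for the NAC protein GRAB2 rose by 1.37 (AK073876, limma adjusted p = 0.00183) and 1.24 (AK105645, limma adjusted p = 0.00715). An AP2 factor (AK107680) had a mean of 9.93 in Control (SD 0.08, n = 3) and 8.93 in P-def (SD 0.09, n = 3), and fell by 1.05 (SE 0.16, limma adjusted p = 0.00675). SHORT-ROOT (AK070489), which patterns the inner root tissues in Arabidopsis, read 10.32, 9.59 and 10.38 and 11.79, 12.35 and 13.01, a rise of 2.36 (SE 0.38, limma adjusted p = 0.00798). The bZIP factor ABI5 (AK105312), which acts in abscisic acid signalling, rose by 1.19 (SE 0.17, limma adjusted p = 0.00397) and was the only call among 124 MYB, bHLH, bZIP and homeobox probes (12 up and 7 down with the block), lost without Control replicate 1 or P-def replicate 1.

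The hormone lists are read against the 1.39% of all probes that were called, and against 7.49% up and 7.31% down with the replicate block. Of 80 auxin probes 2 rose and none fell (median 0.10; 14 and 4 with the replicate block), and neither passed whichever array was left out. Both were of the GH3 kind, enzymes that join auxin or jasmonate to amino acids: DFL-1 (AK063368), by 1.25 (SE 0.26, limma adjusted p = 0.0369), and Nt-gh3 (AK102809), by 1.01 (SE 0.20, limma adjusted p = 0.0309). At DFL-1 the P-def samples read 7.82, 9.18 and 8.08, with replicate 2 far above the others. An IAA-amino acid hydrolase (AK110647), which frees auxin from such conjugates, read 9.12, 8.92 and 9.37 in Control and 10.82, 11.28 and 12.54 in P-def, a change of 2.39 (SE 0.53, limma adjusted p = 0.0528), with an adjusted p of 0.0013 with the block. Of 45 ethylene probes limma called 0 without the block (8 at an unadjusted p under 0.05) and 6 with it. Abscisic acid and dehydration had 2 risers and 1 faller among 39, and 5 and 4 with the block, and 1 to 3 passed when 1 array was left out, fewest without Control replicate 1 or P-def replicate 1.

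Of 60 heat shock probes 3 rose and none fell (median 0.15), where 1.09% of all probes rose and 0.301% fell. The replicate block called 8 up and 4 down, against 7.49% and 7.31% of all probes. When 1 array was left out 1 to 3 passed, fewest without any array but Control replicate 3. HSP101 (AK105433), which dissolves protein aggregates, was dim in Control at 6.68, 6.53 and 6.99 and read 8.76, 9.40 and 8.97 in P-def. It rose 5.29-fold, by 2.40 (SE 0.20, limma adjusted p = 0.000118). A lectin (AK103206), a sugar-binding protein, rose from 8.92, 8.88 and 9.40 to 11.76, 11.67 and 11.61, by 2.63 (SE 0.35, limma adjusted p = 0.0025). CPRD12 (AK110700), named for a drought-induced gene of cowpea, was bright in both groups at 12.53, 11.64 and 12.09 and 14.31, 14.47 and 14.83 and rose by 2.49 (SE 0.22, limma adjusted p = 0.00014). A fatty acid CoA ligase (AK106436) rose by 2.74 (SE 0.50, limma adjusted p = 0.0185). Its nearest named match is from Glomus intraradices, a mycorrhizal fungus, and the 3 P-def values were 9.87, 9.69 and 11.23, with replicate 3 the highest. The peroxidase POX22.3 (AK073202) rose by 1.58 (SE 0.18, limma adjusted p = 0.00099). The largest rise of all probes tested was at AK108539, singled out after its values were seen, whose description is an Arabidopsis clone with no stated function. It read 7.69, 7.54 and 8.57 in Control and 12.42, 12.20 and 12.25 in P-def and rose 21.3-fold, by 4.41 (SE 0.34, limma adjusted p = 8.7e-05).

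The lowered probes included secreted and wall proteins of the root. RD22 (AK105947), a dehydration-responsive protein, fell most of all probes tested, from 9.09, 10.38 and 10.23 in Control to 7.90, 6.94 and 7.71 in P-def, which is 5.61-fold lower. It fell by 2.49 (SE 0.33, limma adjusted p = 0.00221). All P-def samples were below Control, and P-def replicate 2 was the lowest. A peroxidase (AK108824) read 11.81, 11.95 and 10.71 in Control and 9.65, 9.65 and 9.61 in P-def and fell by 1.96 (SE 0.36, limma adjusted p = 0.0195). The RCc2 probe AK062911, a root-specific protein, went from 14.30, 14.45 and 14.39 to 12.50, 12.67 and 12.25 and fell by 1.91 (SE 0.35, limma adjusted p = 0.0185). The samples of each group were close together at this probe. The other 3 measured probes of that name did not pass, with changes from -0.49 to 0.00.

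Germin-like proteins, secreted proteins of the cell wall, gave 2 fallers among 15 probes, with a median of -0.28 (2 up and 5 down with the replicate block). When 1 array was left out 0 to 1 passed, fewest without Control replicate 1 or Control replicate 2. This list and the peroxidases below are read against 1.09% of all probes up and 0.301% down, and 7.49% and 7.31% with the block. GER2 (AK059781) read 13.12, 13.36 and 13.10 in Control and 11.68, 11.44 and 11.42 in P-def and fell by 1.75 (SE 0.25, limma adjusted p = 0.00425). GER1 (AK059338) fell by 1.51 (SE 0.29, limma adjusted p = 0.0254), from 9.16, 9.20 and 10.34 to 7.97, 7.88 and 8.45. A germin-like probe went the other way: AK108987 read 10.86, 10.38 and 11.43 and 11.97, 12.77 and 14.34, a change of 2.15 (SE 0.59, limma adjusted p = 0.109), with an adjusted p of 0.00247 with the block. Peroxidases of class III, enzymes of the wall, had 1 riser and 2 fallers among 82, with a median of -0.15 (5 and 10 with the block), and 1 to 2 passed when 1 array was left out, fewest without any array but Control replicate 3 or P-def replicate 2. The second faller (AK104633) dropped by 1.05 (SE 0.21, limma adjusted p = 0.0308).

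The defence lists are read against 1.09% of all probes up and 0.301% down, and 7.49% and 7.31% with the replicate block. Of 85 pathogenesis-related probes 1 rose and 1 fell (median -0.13; 6 and 8 with the replicate block), and 0 to 1 passed when 1 array was left out, fewest without any array but Control replicate 2 or Control replicate 3. A chitinase (AK111415), an enzyme that cuts fungal walls, rose by 1.96 (SE 0.37, limma adjusted p = 0.0217). Another chitinase (AK062603) read 8.92, 8.64 and 10.35 and 10.87, 10.96 and 12.77, a change of 2.30 (SE 0.55, limma adjusted p = 0.0693), with an adjusted p of 0.000196 with the block. The esterase hsr203J, first found in the hypersensitive response of tobacco, fell at AK061124 by 1.13 (SE 0.22, limma adjusted p = 0.0254). A second hsr203J probe (AK059449) had a change of -0.80 (SE 0.18, limma adjusted p = 0.055), with an adjusted p of 0.0085 with the block. Of 139 NBS-LRR disease resistance probes 1 rose and 1 fell (14 and 12 with the block; 1 passed whichever array was left out). Of 273 receptor-like kinases limma called 0, with 51 at an unadjusted p under 0.05, and the block called 24 up and 20 down. Among 31 glutathione S-transferases, detoxification enzymes, 1 rose and 1 fell (2 and 5 with the block), and 0 to 2 passed when 1 array was left out, fewest without any array but Control replicate 3. The change of greatest size in that list was at GST7 (AK064612), which read 13.85, 13.35 and 13.81 in Control and 12.42, 12.34 and 12.48 in P-def, a change of -1.26 (SE 0.28, limma adjusted p = 0.0523), with an adjusted p of 0.00348 with the block.

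Other named fallers were single genes of varied roles. A protein phosphatase 2C (AK068836), of a family that often damps hormone signals, read 11.78, 11.68 and 11.44 in Control and 10.48, 10.30 and 10.49 in P-def and fell by 1.20 (SE 0.18, limma adjusted p = 0.00636). A cystatin (AK102139), an inhibitor of proteases, fell by 1.16 (SE 0.17, limma adjusted p = 0.00528), from 8.78, 8.98 and 9.23 to 8.004, 7.64 and 8.04. A subtilisin-chymotrypsin inhibitor (AK058739) fell by 1.05 (SE 0.23, limma adjusted p = 0.0491). The glutathione S-transferase AK061233 and the nodulin N21 probe AK106554 fell by 1.10 (SE 0.21, limma adjusted p = 0.0214) and 1.17 (SE 0.25, limma adjusted p = 0.0467). At both, P-def replicate 2 was the lowest of the 6 samples. That array was the lowest at 40 of the 60 fallers (66.7%), against 27.6% of all probes. It was the highest at 31.8% of the 217 risers, against 23.3% of all probes. Where groups do not overlap, these extremes fall in P-def by arithmetic, which by itself raises both shares.

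**Figure D3:**
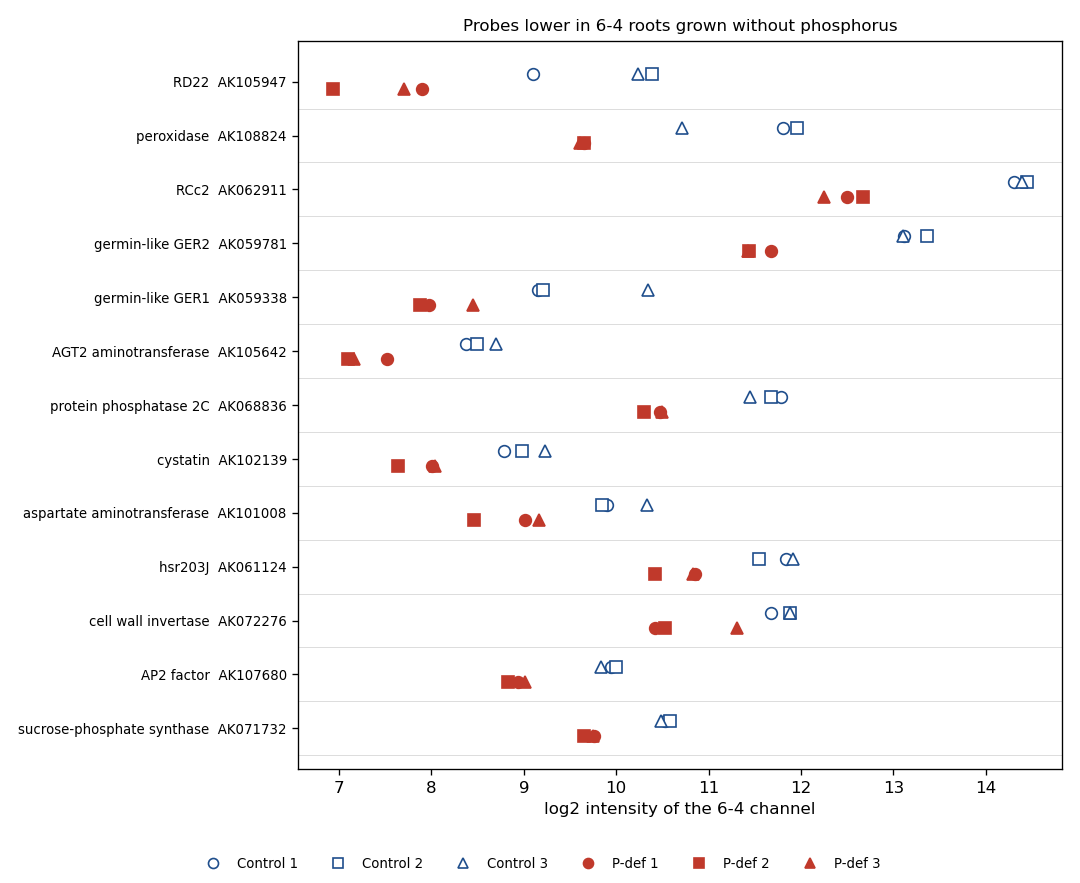
Log2 intensity of the 6-4 channel in the 3 Control samples (open symbols) and 3 P-def samples (filled symbols) for 13 lowered probes, with the symbol shape marking the replicate number. Every filled symbol lies to the left of the open ones of its probe, from a change of -2.49 at AK105947 to -0.82 at AK071732.

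Lists of iron acquisition, growth and translation had 0 or 1 call each, where 1.39% of all probes were called. The replicate block called 7.49% of all probes up and 7.31% down. Of 29 metal transport and iron acquisition probes limma called 0, with 5 at an unadjusted p under 0.05, and 4 fell with the replicate block. OsIRT1 (AK107681), the iron transporter of the root surface, read 12.03, 11.77 and 11.64 in Control and 10.42, 10.83 and 9.72 in P-def, a change of -1.61 (SE 0.44, limma adjusted p = 0.109), with an adjusted p of 0.0207 with the block. A second OsIRT1 probe (AK103730) overlapped between the groups, at 11.04, 10.92 and 10.72 and 10.94, 11.29 and 11.09. Yellow stripe 1 (AK070304), a transporter of iron chelates in maize, had a change of -0.95 (SE 0.39, limma adjusted p = 0.254), with an adjusted p of 0.0249 with the block. Of 7 metallothionein probes limma called 0 with or without the block (0 at an unadjusted p under 0.05). Of 81 cellulose and wall synthesis probes limma called 0, with 13 at an unadjusted p under 0.05 and 1 up and 8 down with the block (median -0.04). Of 46 expansin and xyloglucan endotransglycosylase probes limma called 0, with 3 at an unadjusted p under 0.05 and 2 up and 2 down with the block. Of 123 cytosolic ribosomal protein probes 1 rose (5 and 7 with the block), with a median of -0.10. The D-type cyclin cycD2 (AK063671), which promotes entry into the cell cycle, was the only call among 83 histone and cell cycle probes and rose by 1.08 (SE 0.19, limma adjusted p = 0.0131), with 5 up and 7 down under the block. The cell cycle list had 0 calls in limma's test whichever array was left out, and the ribosomal list had 0 without any array but Control replicate 3.

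Of 17 low oxygen probes limma called 0, with 5 at an unadjusted p under 0.05, where 1.39% of all probes were called. The block called 4 up and 1 down, against 7.49% and 7.31% of all probes. Alcohol dehydrogenase 2 (AK102799) read 10.50, 10.61 and 10.58 in Control and 11.78, 11.21 and 11.01 in P-def, a change of 0.69 (SE 0.20, limma adjusted p = 0.133), with an adjusted p of 0.0345 with the block. Hemoglobin 1 (AK064054), which is known for its rise in flooded roots, had a change of -1.004 (SE 0.40, limma adjusted p = 0.251), and its adjusted p was 0.0734 with the block.

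**Figure D4:**
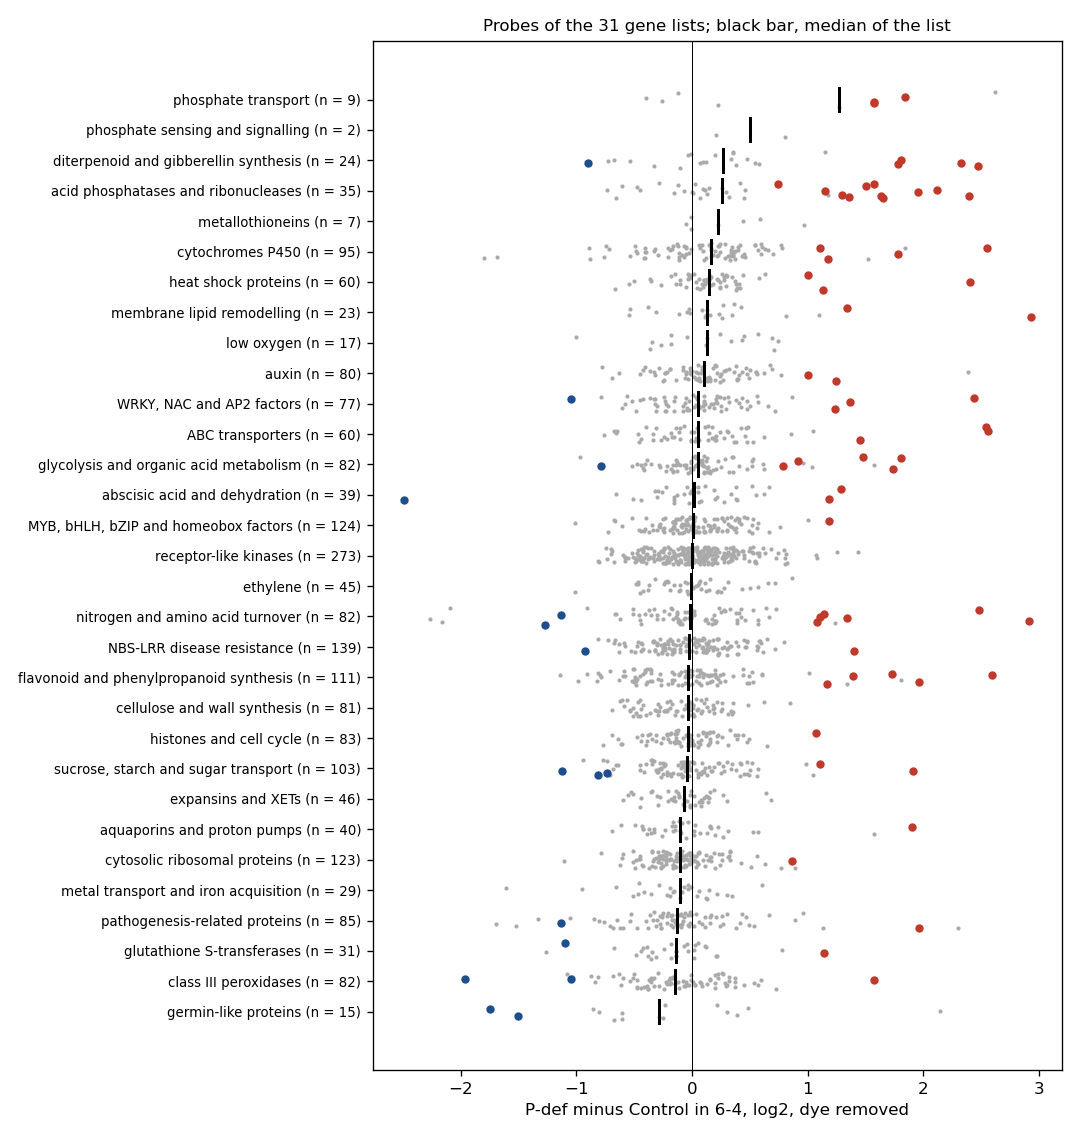
Change of every measured probe of the 31 gene lists in 6-4 roots (P-def minus Control, log2, dye removed), ordered by the list's median, which the black bar marks. Large red points rose and large blue points fell at an adjusted p under 0.05; phosphate transport has the highest median (1.27) and germin-like proteins the lowest (-0.28).

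Nipponbare, on the other channel of the same arrays, had a change of the same sign at most of the probes called in 6-4. Its change was above 0 at 211 of the 217 risers and below 0 at 57 of the 60 fallers. The lines shared the spots of each array (intraspot correlation 0.794), and over all probes tested the sign was the same in both lines at 57.2%. Of the 277 calls, 106 passed in Nipponbare in the same direction, where 0.859% of all probes passed. The test of the difference between the 2 responses passed at 5443 probes (27.3%; 2793 higher and 2650 lower in 6-4). This share went with signal: it was 53% in the dimmest 4978 probes and 5.56% in the brightest 4978, with median absolute differences of 0.44 and 0.11. P-def replicate 2 was the highest of the 6 samples of 6-4 at 70.4% of the 2793 and the lowest at 77.9% of the 2650, against 23.3% and 27.6% of all probes. The count was 0 without a dye term (2129 at an unadjusted p under 0.05), 1979 in the authors' deposited log ratios, 2322 without Control replicate 2, 3006 without P-def replicate 2 and 8793 without Control replicate 3. A true difference and a dye effect of the 2 arrays of replicate 2 cannot be told apart in these counts.

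The difference was called at several of the largest rises. CPRD12 (AK110700) changed by 2.49 in 6-4 and 1.23 in Nipponbare, a difference of 1.27 (limma adjusted p = 0.000255). The P-glycoprotein AK107554 changed by 2.56 and 1.36, a difference of 1.20 (limma adjusted p = 0.000164). Alanine aminotransferase (AK107237) changed by 2.91 and 1.54, a difference of 1.37 (limma adjusted p = 0.000333). MGDG synthase (AK064148) changed by 2.93 and 2.10, a difference of 0.83 (limma adjusted p = 0.00262). The phosphate transporter AK109109 had close to the same change in both lines, 1.84 and 1.84, with a difference of -0.0015 (SE 0.18). At the purple acid phosphatase AK110804 the changes were 2.39 and 2.48, a difference of -0.08 (SE 0.14). The esterase hsr203J (AK061124) fell less in 6-4, with changes of -1.13 and -1.70 in Nipponbare (limma adjusted p = 0.014).

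**Figure D5:**
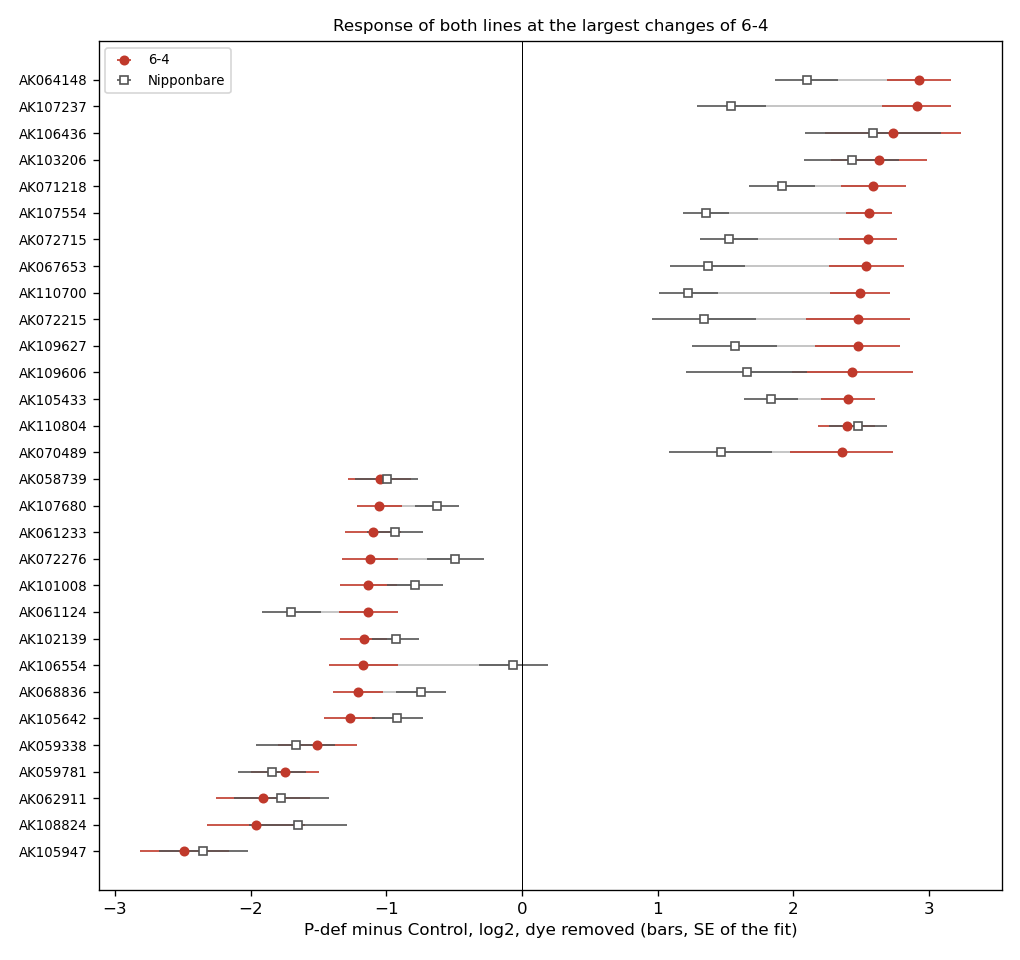
Change under P deficiency (P-def minus Control, log2, dye removed) in 6-4 (filled circles) and Nipponbare (open squares) at the 15 largest named rises and 15 largest named falls of 6-4, with bars for the SE of the fit. The probes were chosen by their change in 6-4, which favours a larger change there. MGDG synthase (AK064148) lies at 2.93 in 6-4 and 2.10 in Nipponbare, and RD22 (AK105947) at -2.49 and -2.35.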

How the data were processed

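Roots of 6-4 and Nipponbare were hybridised together on 6 two-colour Agilent arrays, 3 Control and 3 P-def, with dyes swapped between replicates. The deposited intensity values are output of the Agilent Feature Extraction software. Per the file headers its version was 7.1 for replicates 1 and 2 and 8.1 for replicate 3. The submitters' processing notes give 8.1 for P-def replicate 2 as well. The series table holds log10 ratios that the authors deposited. They equal those of the Feature Extraction output as 6-4 over Nipponbare on 22575 of 22575 spots per array within 0.005. Their direction and scale are therefore settled.

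Mean and background signals were corrected with normexp (offset 50), normalized by loess within arrays and Aquantile between arrays in limma 3.58.1 (R 4.3.3). Control spots (1080) and outlier flags had weight 0. Probes well above background in 6-4 on all 3 arrays of a condition were kept (20386), and 474 with flagged spots were removed, which left 19912. The 12 channels were fitted with lmscFit (4 group means and a dye term, intraspot correlation 0.794, residual df 7, prior df 4.79), with Benjamini-Hochberg adjustment over all 19912 probes. The fit was tested on simulated data with independent noise and a constant dye effect per probe. That simulation held no effect of replicate, software version or the dye on replicate 2 alone, so it says nothing about those. No called probe was below background on every array of a group.

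The members and gene lists were chosen with earlier results of these data known. Named genes are the 15 largest non-overlapping calls per direction among described probes, up to 4 probes of smallest p per list, 10 by the difference between lines, and cell type markers, with exceptions stated where they appear. Same-numbered samples had correlations of 0.107, 0.301 and 0.467 across probes after removing the dye, all over 0.1, against -0.445 to 0.165 for other pairs. Numbers were taken to pair the samples from this check and not from the labels. The replicate 1 pair (0.107) was below Control replicate 1 with P-def replicate 2 (0.152) and Control replicate 2 with P-def replicate 1 (0.165). Correlations were positive within a software version and negative across versions. The check therefore cannot settle whether samples pair by number or by version. Values with the replicate block assume pairing by number. The p-values rest on the residual spread over the channels of both lines, combined with the prior of the fit. They do not measure the spread of the printed values alone, and they speak for these samples only. None of the array's cDNA accessions matched the reference table, so names are those of the array's own annotation, with no genome positions. Alternatives covered the fit, dye, blocks, background, normalization, filters and each array left out.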

Additional observations from a re-analysis of the deposited data

Results flagged for a closer look

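The results here were picked because the test of the difference between the responses of 6-4 and Nipponbare passed (limma, adjusted p from 0.000149 to 0.0229). Each difference is the change of 6-4 minus the change of Nipponbare on the log2 scale, and none can be told apart from a dye effect limited to the 2 arrays of replicate 2.

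Among the rises of 6-4, the difference was 0.83 for MGDG synthase (AK064148), 1.37 for alanine aminotransferase (AK107237), 0.67 for flavanone-3-hydroxylase (AK071218) and 1.14 for Nrt2 (AK072215). For the transporters it was 1.20 at the P-glycoprotein AK107554, 1.17 at the ABC transporter AK067653 and 0.65 at Pht1-2 (AK101170), where 1 of the 3 P-def spots of 6-4 was saturated and the value is not exact. It was 1.02 at the cytochrome P450 AK072715, 0.91 at the taxane hydroxylase-like AK109627, 1.27 at CPRD12 (AK110700), 0.56 at HSP101 (AK105433) and 0.89 at SHORT-ROOT (AK070489). Among phosphate release and lipid genes it was 0.70 at the purple acid phosphatase AK071643, 0.77 at ppd4 (AK106533) and 0.60 at the glycerophosphodiester phosphodiesterase AK071836. The estimates of both lines were above 0 in all of these.

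Among the falls of 6-4, the AP2 factor AK107680 had a difference of -0.42, cell wall invertase 2 (AK072276) of -0.63, protein phosphatase 2C (AK068836) of -0.46 and the nodulin N21 probe AK106554 of -1.11. The hsr203J probe AK061124 had a difference of 0.57, with the larger fall in Nipponbare.

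The 10 described probes with the smallest p in this test were dim, and had estimates of opposite sign in the lines: MtN4 (AK103637, 1.65), the aspartic protease CND41 (AK105540, 1.84), the FtsH-like protease Pftf (AK063733, 1.69), the proline-rich protein OsPRP1 (AK104765, 1.69), UMP synthase (AK069565, 1.54), a rab geranylgeranyl transferase (AK102430, 1.79), a DNA-3-methyladenine glycosylase (AK099028, 1.59), cinnamoyl CoA reductase (AK107198, 1.01) and AK069297, named after a human cDNA (-1.04). In the yew-named P450 AK102289 the difference was -0.99, with changes of -0.90 in 6-4 and 0.09 in Nipponbare. P-def replicate 2 was the highest of the 6 samples of 6-4 at the 8 of these 10 with a positive difference and the lowest at the other 2. At CND41 the 6-4 values were 7.02, 6.45 and 6.74 in Control and 6.68, 8.55 and 6.96 in P-def.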

How the results depend on the processing

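The count of probes called in 6-4 was 277. It stayed within 1.5 times of that in 8 alternatives that kept all 6 arrays. These ran from 200 (only the 6 channels of 6-4, 164 of them shared) to 334 (no dye term). Among them were normexp with an offset of 16 (235), quantile normalization (284), no filter on dim probes (278) and a stricter filter (279). The others were flagged spots kept (287) and negative control spots as background, chosen after seeing the data (311). The count was 2946 with the replicate block and 1036 with the software version as a block. It was 2 with the version 7.1 arrays only, 166 with Agilent's processed signals and 25 without normalization between arrays. Without 1 array in turn it was 71 to 214, and of these only the 214 (without Control replicate 3) was within 1.5 times. The difference of response, 5443 probes, was called at 1979 in the authors' deposited log ratios (30.9% of them higher in 6-4, against 51.3%), at 0 without a dye term in limma's test (2129 at an unadjusted p under 0.05), at 3419 with the replicate block and at 2322 to 8793 without 1 array in turn. Within 1.5 times, of the runs with all 6 arrays, were within-array ratios (3924), the version block (4573) and processed signals (4472, 39.6% higher). Quantile normalization (6022), no filter (6111) and negative control background (5829) were within it too. Of the 84 named called probes, all kept their direction in every alternative run, none passed in every one, and 51 passed in all but the version 7.1 arrays, no normalization between arrays and the left-out arrays. The replicate block lost none of the 84 and called 18 of 20 named probes that did not otherwise pass. The cause of these shifts was not tested. A scan-day block was not run, because the day gave no split of its own. The median signal of the 6-4 channel was 4.94 to 9.83 times background.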
